A study of Mus musculus with 20 samples.

Results

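The Hox cluster genes are the 39 mouse genes whose symbols consist of Hox, a cluster letter (a, b, c or d) and a paralogue number. They were selected by symbol from a table of 52783 genes, by a rule that uses no measured value. Cluster a holds 11 of them, cluster b 10, cluster c 9 and cluster d 9. Along each cluster the genes are described here as anterior (paralogue groups 1 to 3), central (4 to 8) and posterior (9 to 13).

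Hox genes encode homeodomain transcription factors that specify position along the body axis. Within a cluster they lie in the order in which they are used from head to tail, posterior members are switched on last, and the combination active in an embryonic mesenchymal or epithelial cell is often still found in its adult descendants. Polycomb proteins keep unused members silent, Trithorax proteins keep used ones active, retinoic acid switches on anterior members, and TALE homeodomain proteins of the Pbx and Meis families bind DNA together with Hox proteins.

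RNA was sequenced from cells sorted by the leukocyte surface protein CD45 out of mammary tumours of the 4T1 breast cancer model. Tumours were grown in female BALB/cJ mice aged 8 to 12 weeks by injecting the metastatic line 66cl4 or the non-metastatic line 67NR into a mammary fat pad. The 4 groups were 66cl4 CD45-, 67NR CD45-, 66cl4 CD45+ and 67NR CD45+, with 5 libraries each from 5 animals per tumour, and both fractions of a tumour came from the same animal. Each tumour type is a single cell line, and the CD45- fraction holds both cancer cells and non-immune host cells.

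Total counts ranged from 12960000 to 28080314 per library, of which the Hox genes took 799 to 3775 in CD45- and 103 to 397 in CD45+ libraries. Summed levels of 10 leukocyte markers were 97264 to 141877 normalised counts in 66cl4 CD45+ libraries and 267 to 1602 in 66cl4 CD45- libraries. The recorded cell type goes against the sample title for 66cl4 animals 5 and 6, and these sums lay on the side of the title (141221 and 141877 for CD45+, 1602 and 633 for CD45-). Leukocyte sums of 67NR were 76310.2 to 125752 in CD45+ and 1189 to 2758 in CD45- libraries, and 4 of 8 tested leukocyte markers were called lower in 66cl4 than in 67NR CD45- cells. Among CD45- libraries, 8 epithelial markers summed to 6112 to 6871 in 66cl4 and 157 to 552 in 67NR. Krt8 and Krt18 made up most of the 66cl4 sum and were called higher there, while Epcam was called lower, and 3 of the 8 were present in 66cl4 against 5 in 67NR. By contrast, 8 fibroblast markers summed to 7220.4 to 11841 in 66cl4 and 13582 to 20804 in 67NR. Of these 8, 6 were called lower in 66cl4 and 0 higher, where 18.9% of all tested genes were called lower. Pdgfra, a large part of the 66cl4 sum, had the higher mean in 66cl4 (4441 against 2953). Dpt differed most in the other direction among the means of this list (35.7 against 4261). Sums of 6 endothelial markers were 519 to 1037 and 1039 to 4128, and of 6 pericyte and smooth muscle markers 391 to 1009 and 1092 to 3951. The 5 adipocyte markers summed to 7.44 to 40.5 and 139 to 658, nearly all of it Fabp4, with Lep and Cidec at 0.

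Levels of single genes below are normalised counts (counts divided by a size factor per library), and values of the 5 libraries are given in the order of the animal numbers (3, 4, 5, 6 and 7 for 66cl4; 1, 4, 5, 6 and 7 for 67NR). Levels of different genes are compared only in TPM, a share of all transcripts in which counts are also divided by transcript length. A Hox gene was counted as present in a group with at least 10 counts in each of its 5 libraries, and as at the floor with at most 3 counts in each.

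A central block of the a and b clusters carried most of the Hox transcripts in CD45- cells, and most of the far posterior genes were at the floor. In 66cl4 CD45- cells 17 of the 39 genes were present, comprising 4 of 8 anterior, 11 of 15 central and 2 of 16 posterior genes. In 67NR CD45- cells 11 genes were present, comprising 3 anterior and 8 central genes. The posterior pair of 66cl4 was Hoxa10 and Hoxb9.

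Of the 39 genes, 9 stayed at the floor in all 20 libraries, namely Hoxa11, Hoxa13, Hoxb1, Hoxc11, Hoxc12, Hoxc13, Hoxd1, Hoxd12 and Hoxd13. For 5 of these (Hoxa11, Hoxc12, Hoxc13, Hoxd1 and Hoxd12) no count was recorded in any library. A count of 0 allows up to 3 counts, which is 1.07e-05 to 2.31e-05% of a library and covers counting error only. In the embryo Hoxa11, Hoxa13 and Hoxd12 pattern the limb, and Hoxc13 acts in hair follicles.

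Summed over all 39 genes, the Hox level was 96.0 ± 10.1 TPM in 66cl4 CD45- cells and 39.2 ± 6.76 TPM in 67NR CD45- cells (mean ± SD, n = 5). The libraries spanned 78.4 to 103 TPM and 31.2 to 49.9 TPM, so the groups did not overlap. Cluster a gave 54.7% of the Hox TPM in 66cl4 and 78.3% in 67NR, and cluster b gave 35.5% and 12.8%. Clusters c and d together stayed small in both, with 5.52% and 4.32% in 66cl4 and 4.97% and 3.87% in 67NR.

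**Figure D1:**
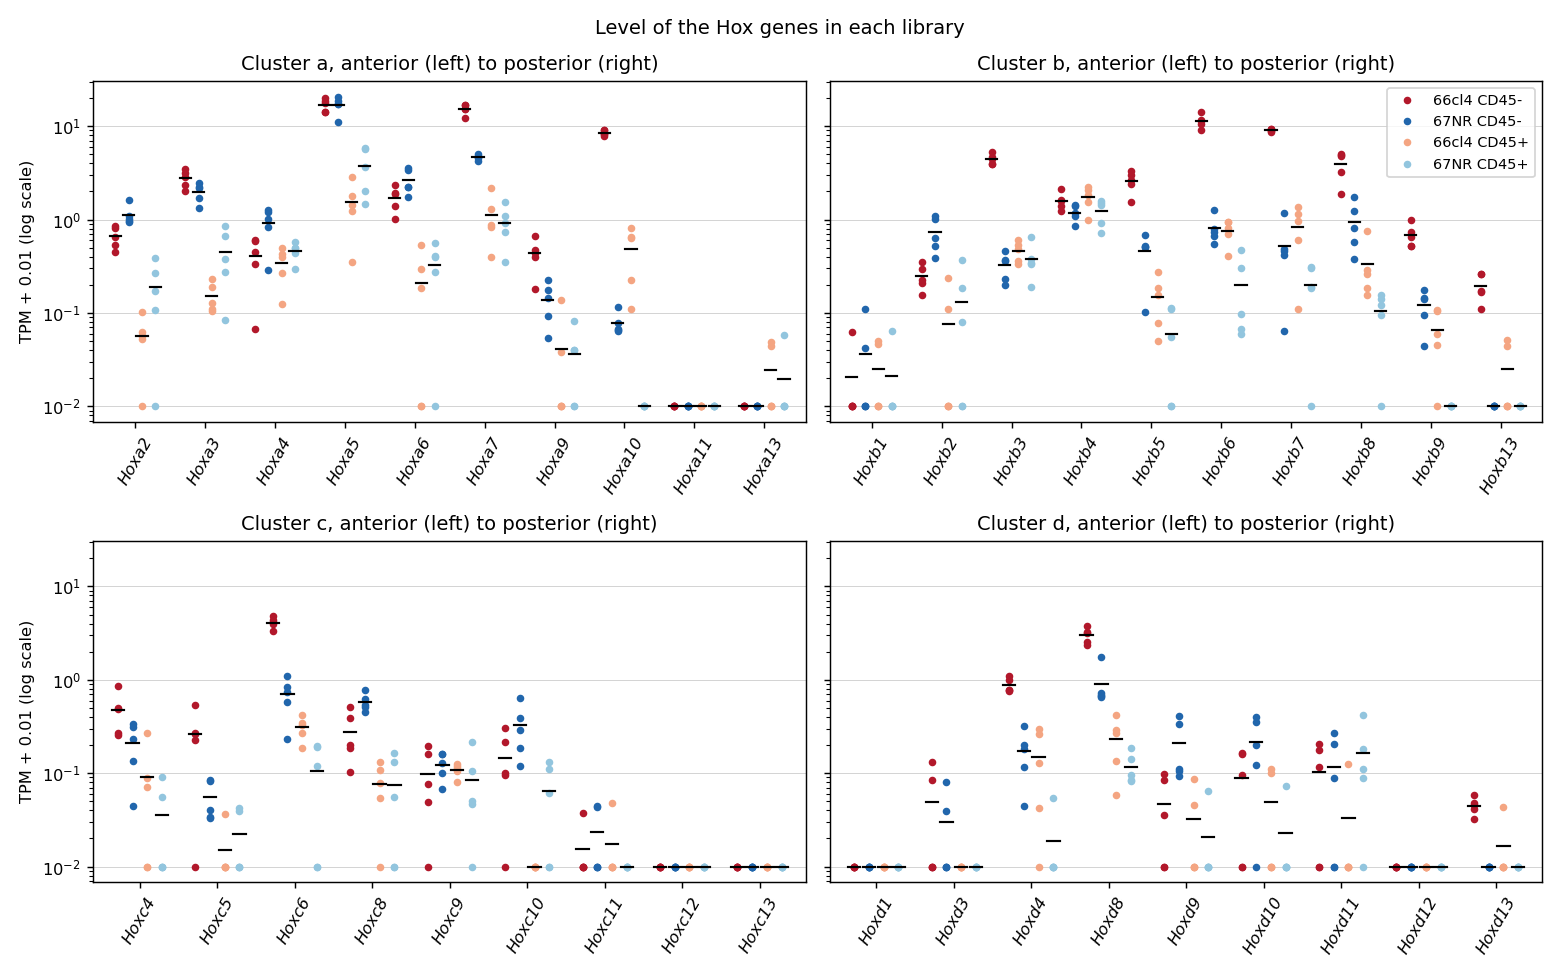
TPM + 0.01 (log scale) of Hox genes in each of the 20 libraries, by cluster and from anterior to posterior. Points are libraries, short lines are means of 5, and Hoxa5 is at about the same level in both CD45- groups (means of 17.1 and 17.0 TPM), Hoxa10 is far higher in 66cl4 CD45- cells (8.51 TPM) than in the other groups, and Hoxa11 is at 0 in every library.

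The posterior end of cluster a showed an uneven series in 66cl4 CD45- cells. Hoxa7 had a mean of 15.4 TPM, the next gene Hoxa9 had 0.424 TPM, Hoxa10 beyond it had 8.51 TPM, and Hoxa11 was at 0. In 67NR CD45- cells the same genes had 4.64, 0.129 and 0.0681 TPM, again with Hoxa11 at 0. The level therefore did not fall off evenly along the cluster in 66cl4, where a low gene lay between higher neighbours.

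The sequences just upstream of these 4 genes are shown because the boundary between transcribed and silent genes of cluster a lies among them, and that of Hoxb4 is added because its level hardly differed between any of the groups. They are the 250 bases before the annotated start in RefSeq (GRCm38.p6), read 5′ to 3′ on the strand of the gene. The windows are chr6:52218574-52218823 for Hoxa7, chr6:52227371-52227620 for Hoxa9, chr6:52240855-52241104 and chr6:52234940-52235189 for start sites 1 and 2 of Hoxa10, and chr6:52245811-52246060 for Hoxa11, all on the minus strand. The Hoxb4 window is chr11:96318017-96318266 on the plus strand. Capitals mark matches, on either strand, to the TATA box with letters TATAAA, the box written CCAAT, the GC box with letters GGGCGG, the homeodomain core with letters TAATTA, or the Pbx-Hox site with letters TGATTTAT.
Hoxa7: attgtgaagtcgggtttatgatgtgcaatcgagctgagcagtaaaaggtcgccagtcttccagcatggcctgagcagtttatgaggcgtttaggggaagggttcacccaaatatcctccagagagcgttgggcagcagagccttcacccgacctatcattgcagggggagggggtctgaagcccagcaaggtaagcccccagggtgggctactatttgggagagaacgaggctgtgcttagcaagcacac
Hoxa9: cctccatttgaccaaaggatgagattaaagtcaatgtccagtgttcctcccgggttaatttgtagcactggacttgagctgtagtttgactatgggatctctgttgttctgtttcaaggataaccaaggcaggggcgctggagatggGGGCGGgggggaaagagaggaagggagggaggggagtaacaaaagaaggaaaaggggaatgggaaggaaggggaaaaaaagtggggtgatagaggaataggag
Hoxa10 start site 1: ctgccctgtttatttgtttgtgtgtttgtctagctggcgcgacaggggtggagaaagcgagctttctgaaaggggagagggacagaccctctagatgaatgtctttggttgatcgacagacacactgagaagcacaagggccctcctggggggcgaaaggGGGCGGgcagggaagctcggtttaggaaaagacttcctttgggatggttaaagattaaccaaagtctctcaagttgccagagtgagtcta
Hoxa10 start site 2: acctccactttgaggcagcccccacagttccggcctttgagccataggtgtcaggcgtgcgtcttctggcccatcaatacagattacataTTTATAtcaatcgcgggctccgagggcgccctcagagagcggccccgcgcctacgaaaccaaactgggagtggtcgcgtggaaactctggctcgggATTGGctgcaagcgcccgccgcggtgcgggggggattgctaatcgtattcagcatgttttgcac
Hoxa11: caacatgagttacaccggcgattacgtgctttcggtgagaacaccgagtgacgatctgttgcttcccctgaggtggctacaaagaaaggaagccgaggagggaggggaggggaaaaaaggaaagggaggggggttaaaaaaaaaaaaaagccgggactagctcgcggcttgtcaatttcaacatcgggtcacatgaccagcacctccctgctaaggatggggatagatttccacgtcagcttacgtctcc
Hoxb4: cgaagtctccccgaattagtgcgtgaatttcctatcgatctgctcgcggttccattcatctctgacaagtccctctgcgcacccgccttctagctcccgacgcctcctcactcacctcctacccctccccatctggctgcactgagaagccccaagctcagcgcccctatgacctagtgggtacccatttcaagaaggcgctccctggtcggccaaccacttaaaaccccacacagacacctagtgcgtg
The start sites of Hoxa10 differed in these letters, since the first held a GC box match and the second a TATA box and a CCAAT box match. The window of Hoxa9 held a GC box match, and those of Hoxa7, Hoxa11 and Hoxb4 held none of the 5 motifs.

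RefSeq gave such windows for 22 of the 39 Hox genes, 24 windows in all. The CCAAT box occurred in 14 of the 24 (58.3%) against 33.8% of 32851 promoter windows of the same length, and the GC box in 10 of 24 (41.7%) against 32.7%. The TATA box occurred in 4 (16.7%) against 12.4%, TAATTA in 2 (8.33%) against 4.84%, and TGATTTAT in none of the 24 against 0.837%. The median number of CpG dinucleotides was 12.5 per Hox window and 6 over all windows. No motif of the 5 contains another, and a match describes letters only.

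The first comparison asks how Hox transcripts of the CD45- fraction differed between the metastatic and the non-metastatic tumours. Of the 39 genes, 19 passed the filter on low counts. They entered edgeR's quasi-likelihood test, with p-values adjusted by Benjamini-Hochberg over all 14844 genes tested. Calls required an adjusted p below 0.05 together with a change of more than 1, up or down, on the log2 scale. Of the 19, 12 were called higher and 2 lower in 66cl4, where 32.2% of all tested genes were called (13.2% higher and 18.9% lower). The median log2 fold change was 1.75 over the tested Hox genes and -0.0091 over all tested genes. A gene that is high in 1 group only passes the filter through that group, so these counts describe the tested members alone. In bulk RNA, fewer cells of a type and less RNA per cell cannot be told apart.

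For all 12 genes called higher, the 5 libraries of 66cl4 lay above those of 67NR, which was the case for 26.9% of all tested genes. They spanned all clusters and included Hoxa7 and Hoxa10 in cluster a, Hoxb3 and Hoxb5 to Hoxb9 in cluster b, Hoxc6 in cluster c, and Hoxd4 and Hoxd8 in cluster d. The genes called lower, Hoxa4 and Hoxc8, overlapped between the groups.

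Hoxa10, a posterior gene with known roles in the uterus and in blood progenitors, differed most. It had 259, 244, 222, 245 and 253 normalised counts in 66cl4 and 1.75, 1.5, 3.51, 1.56 and 2.05 in 67NR. The 5 libraries of 66cl4 lay close together (coefficient of variation 5.66%), and those of 67NR were near the floor. The ratio of the means was 118, with a counting interval of 67.8 to 231, and the fitted log2 fold change was 6.86 (SE 0.20, adjusted p = 4.22e-12). The neighbours on either side of Hoxa10 were low in both tumours. Hoxa9 had 23.9, 14.3, 5.83, 17.0 and 16.0 normalised counts in 66cl4 and 8.77, 1.5, 3.51, 4.69 and 6.14 in 67NR, and did not pass the filter. The ratio of its means was 3.13 (counting interval 1.96 to 4.87). Several alternatives that admitted Hoxa9 called it higher in 66cl4, such as edgeR with 10 counts required in 5 libraries (log2 fold change 1.65, adjusted p = 0.0052).

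Hoxa7, the last central gene of cluster a, had 373, 355, 326, 303 and 368 normalised counts in 66cl4 and 107, 97.5, 126, 99.2 and 116 in 67NR. The groups lay far apart, with a log2 fold change of 1.69 (SE 0.11, adjusted p = 1.2e-08).

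From Hoxa2 to Hoxa6, the genes of cluster a showed smaller differences of either sign. Hoxa5, which acts in lung and mammary gland development, had the highest TPM of all Hox genes in both tumours. It had 299, 403, 356, 327 and 403 normalised counts in 66cl4 and 441, 410.4, 271, 348 and 374 in 67NR. These ranges overlapped throughout, and the log2 fold change was -0.01 (SE 0.13, adjusted p = 0.952). The log2 fold change was 0.46 for Hoxa3 (adjusted p = 0.0419), -0.82 for Hoxa2 (adjusted p = 0.0271) and -0.63 for Hoxa6 (adjusted p = 0.0687), none of which reached the fold set for a call. Hoxa2 and Hoxa6 were low in both tumours. Hoxa2 spanned 8.32 to 18.1 (66cl4) and 18.0 to 36.0 (67NR), and Hoxa6 10.6 to 23.1 and 16.4 to 35.8.

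Hoxa4 had 10.6, 10.6, 7.49, 6.37 and 0.998 normalised counts in 66cl4 and 20.2, 21.0, 24.6, 14.1 and 5.11 in 67NR, with a log2 fold change of -1.18 (SE 0.47, adjusted p = 0.0390). Animal 7 was the lowest of each group, and its 67NR value lay among the 66cl4 values. The call was kept in 10 of 18 alternatives and lost on leaving out 66cl4 animal 5, 6 or 7 or 67NR animal 1, 4 or 5 (adjusted p = 0.0676, 0.0783, 0.0732, 0.0647, 0.0780 and 0.0912).

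Cluster b held the largest group of genes called higher. Hoxb7 had 130.1, 132, 127, 136 and 129.8 normalised counts in 66cl4 and 0.877, 15.8, 7.90, 6.25 and 6.14 in 67NR. This was the steadiest gene of 66cl4 (coefficient of variation 2.62%) and a variable one in 67NR (72.8%), with a log2 fold change of 4.13 (SE 0.36, adjusted p = 1.98e-07). Hoxb6 had 308, 236, 238, 218 and 248 in 66cl4 and 19.3, 26.3, 18.4, 14.1 and 12.3 in 67NR. Its log2 fold change was 3.80 (SE 0.19, adjusted p = 7.77e-10), and it had the highest mean of the cluster in 66cl4 at 11.4 TPM.

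Hoxb3, an anterior gene, had 167, 142, 149.8, 152 and 184 normalised counts in 66cl4 and 14.0, 12, 7.90, 15.6 and 8.18 in 67NR. The log2 fold change was 3.79 (SE 0.20, adjusted p = 1.16e-09). Of its exonic bases 52.9% lie opposite to the antisense gene Hoxb3os, which had 0 to 1.25 normalised counts in 66cl4. In 67NR it had 2.63 to 10.9, so its order was the reverse of that of Hoxb3. Whether the counting used strand is not given in the sources used here.

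Hoxb5, Hoxb8 and Hoxb9 had smaller fitted values than Hoxb3, Hoxb6 and Hoxb7. Hoxb8 had 146, 143, 89.9, 59.5 and 141 normalised counts in 66cl4 and 40.4, 48.0, 19.3, 22.7 and 11.2 in 67NR (log2 fold change 2.05, SE 0.36, adjusted p = 0.000213). Hoxb5 had 63.7, 71.7, 53.3, 35.1 and 48.9 against 12.3, 13.5, 12.3, 10.2 and 2.05 (2.44, SE 0.35, adjusted p = 2.83e-05). Hoxb9 had 27.9, 14.96, 17.5, 15.9 and 19.96 against 4.39, 4.50, 4.39, 2.34 and 1.02 (2.48, SE 0.37, adjusted p = 3.65e-05). Each of the 3 was higher in every 66cl4 library than in any of 67NR, and Hoxb9 was the last gene of the cluster to be present.

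Beyond Hoxb9, Hoxb13, a gene of prostate and hindgut, had 3.98, 2.49, 5.83, 4.25 and 5.99 normalised counts in 66cl4 and 0 in all 5 libraries of 67NR. The mean of 66cl4 was 1.74-fold a floor of 3 counts per library in 67NR. That figure leaves out the counting error of the 66cl4 libraries, which had 3 to 7 counts each. The gene did not pass the filter. Hoxb2, an anterior gene, went the other way at low counts, with 2.65 to 5.83 in 66cl4 and 7.16 to 22.8 in 67NR, a ratio of 66cl4 to 67NR of 0.312 (counting interval 0.189 to 0.497).

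Hoxb4, in the middle of cluster b and known for the expansion of blood stem cells, was the exception among its neighbours. It had 39.8, 62.3, 43.3, 38.2 and 43.9 normalised counts in 66cl4 and 27.2, 37.5, 47.4, 29.7 and 34.8 in 67NR. The ranges overlapped, with a log2 fold change of 0.41 (SE 0.22, adjusted p = 0.118). In 67NR it had the highest mean of cluster b, at 1.18 TPM.

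Few genes of clusters c and d were present, and their highest means were those of Hoxc6 (4.09 TPM in 66cl4 and 0.686 in 67NR) and Hoxd8 (3.01 and 0.889). Hoxc6, a thoracic gene, had 83.6, 79.2, 54.9, 75.4 and 69.9 normalised counts in 66cl4 and 11.4, 18.0, 14.9, 14.1 and 4.09 in 67NR (log2 fold change 2.54, SE 0.29, adjusted p = 3.01e-06). Hoxc8 had 3.98, 3.74, 7.49, 2.12 and 9.98 in 66cl4 and 10.5, 9.75, 14.9, 15.6 and 11.2 in 67NR (-1.13, SE 0.38, adjusted p = 0.0173). Thus neighbouring present genes of cluster c differed in opposite directions, and Hoxc8 was the only gene present in 67NR but not in 66cl4. Its call was lost on leaving out 66cl4 animal 4 (log2 fold change -0.99, adjusted p = 0.0546) or 6 (-0.93, adjusted p = 0.0456), and with the replicate number as a block (-1.17, adjusted p = 0.0660). Without 66cl4 animals 5 and 6, whose labels conflict, the calls of Hoxc8 (-1.02, adjusted p = 0.0643) and Hoxa4 (-1.12, adjusted p = 0.137) were both lost.

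Hoxd8 had 74.3, 113, 89.1, 75.4 and 90.8 normalised counts in 66cl4 and 23.7, 48.8, 21.95, 18.7 and 20.5 in 67NR (log2 fold change 1.75, SE 0.26, adjusted p = 4.24e-05). Hoxd4 had 27.9, 31.8, 20.8, 23.4 and 21.0 against 6.14, 8.25, 3.51, 4.69 and 1.02 (2.37, SE 0.37, adjusted p = 5.76e-05). Both were higher in every 66cl4 library. Of the exonic bases of Hoxd4, 39.1% are shared on the same strand with Gm28230 and 13.2% with Hoxd3, so its counts are uncertain, and 35% of its values were not whole numbers. The remaining genes of clusters c and d had means of at most 10.99 normalised counts in any group.

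**Figure D2:**
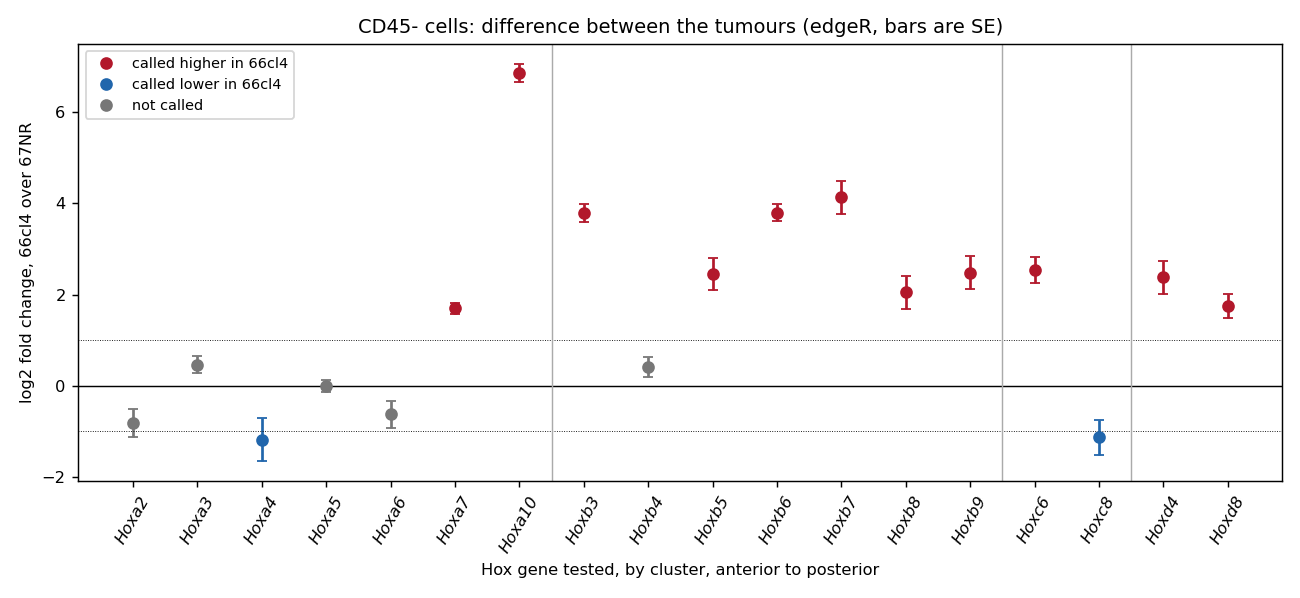
Fitted log2 fold change (66cl4 over 67NR, edgeR) of Hox genes tested in CD45- cells, ordered by cluster and from anterior to posterior, with bars of 1 SE and dotted lines at -1 and 1. Hoxa10 lies highest at 6.86, Hoxa2 to Hoxa6 and Hoxb4 lie near or below 0.46, and Hoxa4 and Hoxc8 are the genes called lower.

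The share of posterior genes in the Hox TPM of CD45- cells was 10.7 ± 0.676% for 66cl4 and 3.14 ± 0.655% for 67NR (mean ± SD, n = 5). The libraries ranged from 10.0 to 11.6% and from 2.55 to 4.21%, without overlap. Hoxa10 held most of the posterior level in 66cl4, with 8.51 TPM against 0.0681 TPM in 67NR. The other posterior genes had means of at most 0.670 TPM in 66cl4 (Hoxb9) and 0.316 TPM in 67NR (Hoxc10). The higher posterior share of 66cl4 was thus that of Hoxa10 and not of the posterior genes as a group. Central genes made up 75.0 ± 1.33% and 80.6 ± 1.06%, and anterior genes 14.3 ± 1.01% and 16.2 ± 1.33%. The 2 tumours also differed in cell type markers within this fraction, as the sums above show, and the part of that difference in the Hox levels was not tested.

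In the CD45+ fraction the same tumours differed little in summed Hox level. The sum over the 39 genes was 10.0 ± 3.58 TPM in 66cl4 and 9.74 ± 3.03 TPM in 67NR, with libraries at 5.96 to 15.4 and 6.32 to 14.0 TPM. Clusters a and b differed in opposite directions. Cluster b had 4.38 ± 1.38 TPM in 66cl4 and 2.25 ± 0.687 in 67NR, without overlap (3.04 to 6.36 and 1.37 to 2.91). Cluster a had 4.61 ± 2.09 and 6.87 ± 2.86 TPM, with overlap (1.99 to 7.78 and 3.08 to 10.2). These sums were not tested. In 66cl4 2 genes were present and in 67NR 3, among them Hoxb4 in both tumours and Hoxa5 in 67NR. Of the 6 genes tested, 1 was called, Hoxb6, where 11.8% of all tested genes were called, 5.01% as higher and 6.82% as lower in 66cl4. None of the 6 was free of overlap between the tumours, as against 7.5% of all tested genes higher and 7.56% lower in every 66cl4 library. The median log2 fold change was 0.27 over the 6 genes and 0.0098 over all genes.

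Hoxb6 had 8.35, 19.1, 18.3, 18.9 and 18.6 normalised counts in 66cl4 CD45+ libraries and 12.5, 6.59, 2.03, 1.2 and 1.03 in 67NR CD45+ libraries. Animal 3 of 66cl4 lay below animal 1 of 67NR, so the groups overlapped. The log2 fold change was 1.93 (SE 0.58, adjusted p = 0.0328). The call was lost without 66cl4 animal 4, 5, 6 or 7 (adjusted p = 0.0626, 0.0669, 0.0556 and 0.0615) and without 67NR animal 5, 6 or 7 (0.0924, 0.0726 and 0.0614), and the log2 fold change was 2.57 without 67NR animal 1.

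Hoxa10 had 2.78, 5.73, 19.3, 22.1 and 21.1 normalised counts in 66cl4 CD45+ libraries and 0 in all 5 of 67NR. The mean of 66cl4 was 4.01-fold the floor of 3 counts per library in 67NR, leaving out the counting error and spread of 66cl4. The gene did not pass the filter. The edgeR test called Hoxa10 higher in 66cl4 without a filter (adjusted p = 0.000359) and in a fit of all 20 libraries (adjusted p = 2.64e-05). Fitted folds are not given, since 1 of the groups was at 0. Hoxb9 was likewise at 0 in all 5 libraries of 67NR CD45+ cells and had 0 to 2.89 in 66cl4, within the floor. Hoxa5 had 6.95, 34.4, 30.9, 31.6 and 54.9 against 144, 124, 80.3, 39.5 and 28.8, with a log2 fold change of -1.36 (SE 0.53, adjusted p = 0.0876). It overlapped between the tumours and was not called, whereas DESeq2 called it (log2 fold change -1.38, adjusted p = 0.0319).

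Whether the tumour difference itself differed between the fractions was tested as an interaction over all 20 libraries. Of 19 Hox genes tested, 5 passed an adjusted p under 0.05, all with a negative value, meaning that the excess of 66cl4 over 67NR was smaller in CD45+ than in CD45- cells, or turned round as for Hoxa3. Of all 16453 genes tested 43.1% passed, 21.2% with a negative value. The interaction was -3.45 for Hoxb3 (log2, SE 0.37, adjusted p = 4.04e-07), -2.09 for Hoxa3 (SE 0.58, adjusted p = 0.0067) and -1.82 for Hoxb6 (SE 0.58, adjusted p = 0.0167). For Hoxa7 it was -1.44 (SE 0.45, adjusted p = 0.0136).

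Hoxb3 had 11.1, 11.5, 19.3, 21.0 and 19.4 normalised counts in 66cl4 CD45+ libraries and 7.80, 12.1, 12.2, 21.6 and 12.3 in 67NR CD45+ libraries, close to the 7.90 to 15.6 of 67NR CD45- libraries. Only 66cl4 CD45- cells, at 142 to 184, stood apart. Hoxb6 lost the interaction call without 67NR CD45+ animal 1 (-1.22, adjusted p = 0.0922) or 4 (-1.59, adjusted p = 0.0578). Hoxa3 and Hoxa7 lost it without 66cl4 animals 5 and 6 (adjusted p = 0.0605 and 0.0745). No fitted interaction is given for Hoxa10, since 1 of the groups was at 0.

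The comparison of the fractions within each tumour shows most Hox transcripts on the CD45- side. In 66cl4, 15 of the 16 genes tested were called lower in CD45+ cells, where 20.5% of all 14916 genes tested were called lower and 44.4% either way. All 15 were lower in every CD45+ library than in any CD45- library, as were 30.9% of all genes tested. The median log2 fold change was -3.54 over the tested Hox genes and 0.0031 over all genes. In 67NR, 10 of 12 were called lower (19.6% of 15063 genes lower, 39.8% either way), 9 of them without overlap (28.1% of all genes), with a median of -2.24 against -0.049. In 66cl4, 17 Hox genes were present in CD45- and 2 in CD45+ cells, and in 67NR 11 and 3. Genes high in CD45- cells only thus passed the filter through that fraction, and these counts describe the tested members alone. The fractions share animals, and the comparisons share libraries with those between the tumours.

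Among the 16 genes tested in 66cl4 the largest fall was that of Hoxa3, from 90.3, 84.2, 94.9, 63.7 and 64.9 normalised counts in CD45- to 2.78, 4.78, 2.89, 4.21 and 5.92 in CD45+ libraries. Its log2 fold change was -4.23 (SE 0.27, adjusted p = 2.71e-08). In 67NR the same gene had 71.1, 60.02, 44.8, 68.7 and 51.1 in CD45- and 29.7, 19.8, 11.2, 7.19 and 2.06 in CD45+ libraries (-2.11, SE 0.48, adjusted p = 0.0021). The fractions did not overlap in either tumour, and the 67NR CD45+ libraries were widely spread.

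Hoxa5 fell by 3.47 on the log2 scale in 66cl4 (SE 0.32, adjusted p = 9.38e-07) and by 2.15 in 67NR (SE 0.39, adjusted p = 0.000493). Hoxa7, with 8.35 to 44.8 normalised counts in 66cl4 CD45+ and 7.20 to 35.2 in 67NR CD45+ libraries, fell by 3.78 (SE 0.29, adjusted p = 1.41e-07) and by 2.32 (SE 0.33, adjusted p = 7.82e-05).

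For the remaining genes called lower in CD45+ cells of 66cl4 the log2 fold change ranged from -2.58 (Hoxd4) to -4.16 (Hoxb5). In 67NR the lowest value among the 12 genes tested was that of Hoxb8, with a log2 fold change of -3.29. The value of Hoxb6 in 67NR was -2.04 (SE 0.55, adjusted p = 0.0062) and moved to -2.69 without CD45+ animal 1. That of Hoxc8 was -3.05 (SE 0.58, adjusted p = 0.000626) and moved to -3.64 without CD45+ animal 4.

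Among the genes tested, Hoxb4 was the one that did not follow in either tumour. It had 57.0, 48.7, 46.3, 34.7 and 59.2 normalised counts in 66cl4 CD45+ libraries and 25.0, 46.2, 27.4, 40.7 and 39.1 in 67NR CD45+ libraries. These values lay within or beside the CD45- values of 38.2 to 62.3 and 27.2 to 47.4. The log2 fold change of CD45+ over CD45- was 0.07 in 66cl4 (SE 0.21, adjusted p = 0.769) and 0.02 in 67NR (SE 0.24, adjusted p = 0.956). Clusters c and d had no present gene in CD45+ cells. Their highest means were those of Hoxc6 (0.300 TPM) and Hoxd8 (0.225 TPM) in 66cl4 and of Hoxc6 (0.0950 TPM) and Hoxd11 (0.153 TPM) in 67NR. In TPM, Hoxb4 was the highest Hox gene of 66cl4 CD45+ cells (1.74 ± 0.497) and the next after Hoxa5 in 67NR CD45+ cells (1.23 ± 0.387). The other gene of the tests that was not called lower was Hoxb3 in 67NR, at 0.19 (SE 0.32, adjusted p = 0.626) between 2 low levels. Hoxa4 did not pass the filter between the fractions of either tumour. In 66cl4 it had 0.998 to 10.6 normalised counts in CD45- and 1.91 to 8.42 in CD45+ libraries. The ranges in 67NR were 5.11 to 24.6 and 6.24 to 9.59.

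Levels of CD45+ cells as a share of those of CD45- cells can be set beside those of cell type markers, for genes with at least 10 counts in every CD45- library. In 66cl4 the share was 5.17 to 108% over 17 Hox genes (median 7.96%), and 4.03 to 669% over 7 fibroblast markers (median 6.86%). Hoxb4 gave the 108%, and the other 16 lay at 15.6% or less. Pi16 was the highest of the fibroblast markers in both tumours. Genes were chosen by their CD45- level, so genes low there, such as Hoxa4, are left out. In 67NR it was 10.3 to 101.03% over 11 Hox genes (median 19.9%) and 7.89 to 97.0% over 8 fibroblast markers (median 14.0%). For epithelial markers the share was 5.09 to 1893% over 3 genes (median 5.53%) and 4.08 to 690% over 5 (median 16.9%), with Cdh1 the highest in both tumours. Endothelial markers had shares of 20.1 to 1248% over 3 genes in 66cl4 (median 20.9%) and 9.10 to 138% over 5 in 67NR (median 12.9%). Pecam1 was the highest of them in both tumours. Pericyte and smooth muscle markers had 12.9 to 345% over 3 genes (median 19.98%) and 7.94 to 36.0% over 4 (median 14.6%). Acta2 was the highest of these in both.

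**Figure D3:**
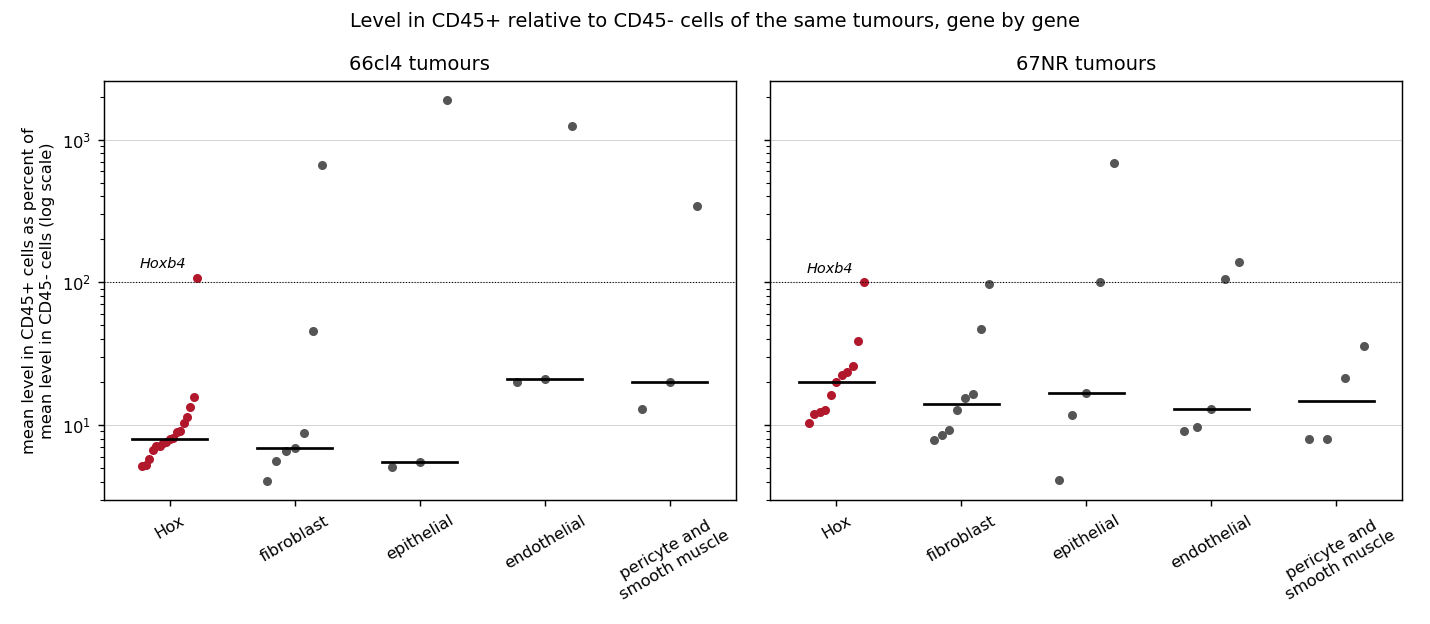
Mean level in CD45+ cells as a percentage of the mean level in CD45- cells (log scale) for Hox genes and for markers of 4 non-immune cell types, in 66cl4 (left) and 67NR (right) tumours. Each point is a gene and each line a median; in 66cl4 the Hox genes other than Hoxb4 lie between 5.17 and 15.6%, and Hoxb4 lies at 108%.

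The Hox level of single CD45+ libraries moved with the sum of the fibroblast markers. Without Hoxb4, the Hox genes summed to 86.2, 191, 187, 201 and 276 normalised counts in 66cl4 CD45+ libraries, beside fibroblast marker sums of 510.4, 687, 694, 731 and 1344. In 67NR CD45+ libraries the Hox sums were 289, 274, 181, 141 and 104 beside 3011, 3825, 1856, 1235 and 981. In both tumours the library lowest in fibroblast markers was also the lowest in Hox transcripts. Hoxb4 was highest where the fibroblast sum was highest in both tumours (59.2 and 46.2), but the other libraries did not follow, with 57.0 at the lowest fibroblast sum of 66cl4 and 25.0 at the next to highest of 67NR. The epithelial markers of the same libraries summed to 623, 776, 795, 731 and 958 in 66cl4 CD45+ cells and to 326, 280.3, 269, 265 and 263 in those of 67NR. Their lowest and highest libraries were those of the Hox sum in both tumours, and in 67NR the whole order was the same. Cdh1 held much of this epithelial sum (means of 394 in 66cl4 and 227 in 67NR). It was higher in CD45+ than in CD45- libraries of every animal, so the epithelial sum is not a measure of non-immune cells here. In 67NR the epithelial sum spanned only 263 to 326. The fibroblast sum has the same limit in 66cl4 through Pi16, with means of 259 in CD45+ and 38.7 in CD45- libraries. Pi16 was higher in CD45+ libraries of every 66cl4 animal. In 67NR it had means of 130 and 134. The part of non-immune cells in the Hox levels of the CD45+ fraction was not tested. The sum without Hoxb4 was chosen after the data were seen.

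**Figure D4:**
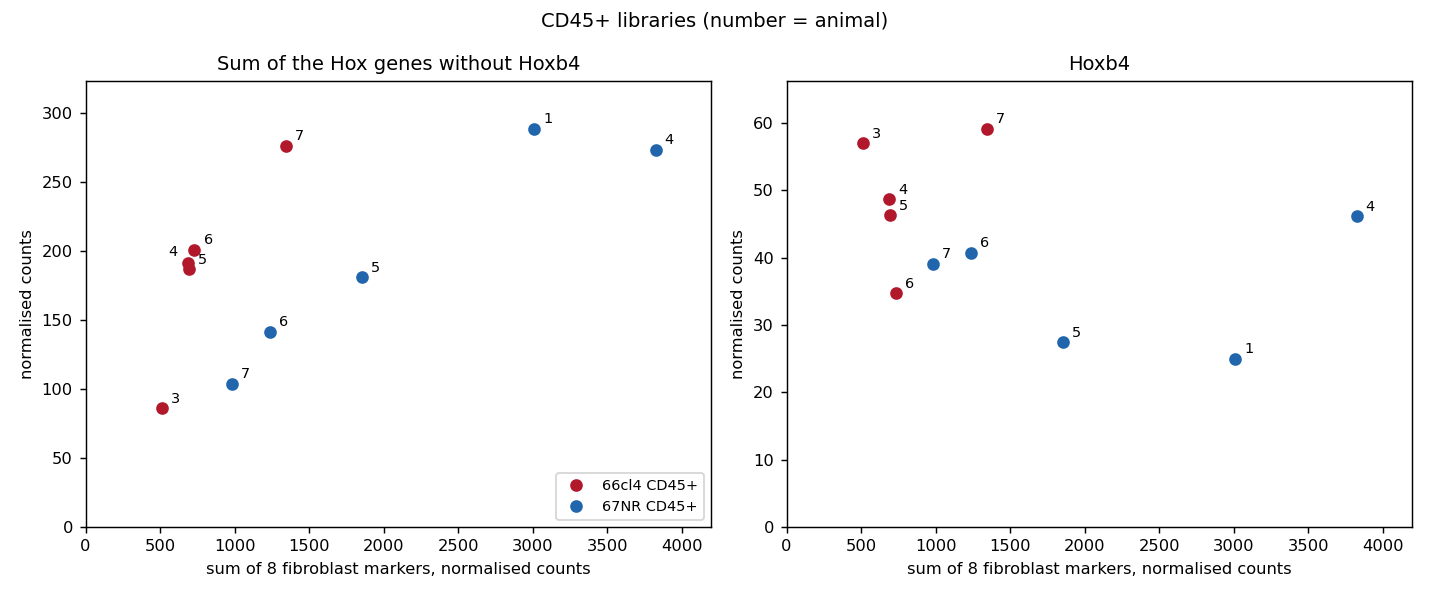
Normalised counts of the Hox genes without Hoxb4 (left) and of Hoxb4 (right) against the summed normalised counts of 8 fibroblast markers in the 10 CD45+ libraries, numbered by animal. The Hox sum is lowest where the fibroblast sum is lowest in both tumours (86.2 and 104), whereas Hoxb4 lies between 25.0 and 59.2, highest at the highest fibroblast sum of each tumour and lowest at other libraries than the Hox sum.

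The non-coding genes of the clusters were mostly low, and 3 of the 10 found in the table were tested between the CD45- groups. Hoxd3os1, which overlaps exons of Hoxd4 on the opposite strand, was called higher in 66cl4, with 13.8 to 18.0 normalised counts against 0 to 6.14 (log2 fold change 2.41, SE 0.47, adjusted p = 0.000435). Hoxaas3, which overlaps exons of Hoxa7 and Hoxa3 on the opposite strand, was called lower, with 4.99 to 7.49 against 12.3 to 14.3 (-1.17, SE 0.28, adjusted p = 0.0018), the opposite direction to Hoxa7. Hotairm1, which acts in myeloid cells, had 36.1 to 51.7 against 64.1 to 125, with a log2 fold change of -0.98 (SE 0.20, adjusted p = 0.000718) that stayed short of a call. In CD45+ cells it had 24.8 to 50.5 in 66cl4 and 13.2 to 70.2 in 67NR, where its fall of 1.06 from CD45- cells was called (SE 0.37, adjusted p = 0.0234). Hottip and Haglr were at 0 in every library.

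The TALE cofactors, which bind DNA with Hox proteins, were transcribed in both tumours. Of 9 genes, 7 were tested in CD45- cells, 1 was called higher and 1 lower in 66cl4, and the median log2 fold change was 0.17. Over all tested genes 32.2% were called in this comparison. Meis3 had 82.9 ± 17.3 normalised counts in 66cl4 and 2.99 ± 1.48 in 67NR (log2 fold change 4.75, SE 0.32, adjusted p = 1.29e-08). Meis1 had 199.7 ± 22.5 and 442 ± 61.3 (-1.11, SE 0.12, adjusted p = 1.62e-06). Between the fractions 5 of 7 were called lower in CD45+ cells of 66cl4 and 3 of 6 in 67NR, against 20.5% and 19.6% of all tested genes. Meis2 fell by 3.94 in 66cl4 (SE 0.28, adjusted p = 8.43e-08) and by 2.13 in 67NR (SE 0.27, adjusted p = 2.70e-05).

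Chromatin regulators of the clusters differed little between the CD45- groups. Of 17 Polycomb genes tested, edgeR called 0, against 32.2% of all tested genes, and DESeq2 0, while 10 had an unadjusted p under 0.05. The same number had an adjusted p under 0.05 and fell short of a call by fold alone, and the log2 fold changes lay between -0.69 and 0.58 (median 0.073, against -0.0091 over all genes). Of 10 Trithorax genes and H3K27 demethylases edgeR called 0 and DESeq2 0, with 5 at an unadjusted and 4 at an adjusted p under 0.05, and values between -0.58 and 0.90 (median -0.16). Between the fractions, Cbx6 and Pcgf2 of Polycomb complex 1 were lower in CD45+ cells of 66cl4, with log2 fold changes of -3.21 (SE 0.17, adjusted p = 7.46e-09) and -2.85 (SE 0.16, adjusted p = 1.10e-08). Jarid2, a subunit of Polycomb complex 2, was higher there (3.30, SE 0.19, adjusted p = 1.51e-08).

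In the retinoic acid pathway, 4 of 12 tested genes were called higher and 1 lower in 66cl4 CD45- cells, with a median log2 fold change of 0.18. Over all tested genes 13.2% were called higher and 18.9% lower. Stra6, the cellular retinol importer, had 1044 ± 238 normalised counts in 66cl4 and 1.70 ± 0.560 in 67NR (log2 fold change 9.20, SE 0.25, adjusted p = 2.43e-12). Aldh1a1, which makes retinoic acid, had 137 ± 73.4 and 9.43 ± 2.83 (3.88, SE 0.38, adjusted p = 8.36e-07), and Cyp26b1, which degrades it, had 75.4 ± 15.3 and 10.7 ± 4.62 (2.83, SE 0.29, adjusted p = 9.81e-07). Aldh1a3, a second synthesising enzyme, had 96.0 ± 18.1 and 1101 ± 414 (-3.47, SE 0.25, adjusted p = 1.11e-07). The enzymes of synthesis thus differed in opposite directions.

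Among other regulators of limb and trunk mesenchyme, 4 of 10 tested genes were called higher and 2 lower in 66cl4 CD45- cells. The shares over all tested genes were 13.2% and 18.9%, and the median log2 fold change of the list was 0.55. Lbx1, a regulator of migrating muscle precursors, had 1109 ± 156 normalised counts in 66cl4 and 1.63 ± 1.19 in 67NR (log2 fold change 9.29, SE 0.24, adjusted p = 2.00e-12). Prrx2 had 1825 ± 183 and 15.1 ± 7.69 (6.97, SE 0.24, adjusted p = 3.10e-11), and Tbx4, a hindlimb regulator, had 88.5 ± 9.06 and 2.67 ± 1.58 (5.00, SE 0.35, adjusted p = 2.20e-08). Emx2 had 0.727 ± 0.671 and 18.6 ± 2.08 (-4.46, SE 0.48, adjusted p = 1.63e-06). In 66cl4, all 9 tested genes of this list were called lower in CD45+ cells, and in 67NR all 7, with medians of -4.34 and -2.36. Over all tested genes 20.5% and 19.6% were called lower. Between the CD45+ groups, 2 of 8 were called higher and 3 lower in 66cl4, where 5.01% of all tested genes were called higher and 6.82% lower. In the same comparison the calls were 2 higher and 1 lower of 10 for the retinoic acid pathway, 1 higher and 2 lower of 17 for Polycomb, 1 higher of 10 for Trithorax and 1 lower of 7 for the TALE cofactors.

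Among neighbours and relatives of the clusters, 2 of 12 genes passed the filter in CD45- cells, Meox1 and Meox2 of the somite. Both were called lower in 66cl4, as were 18.9% of all tested genes. Meox1 had 0 to 8.73 normalised counts against 9.20 to 48.0 (log2 fold change -2.87, SE 0.63, adjusted p = 0.0012), and Meox2 had 5.31 to 30.8 against 20.5 to 86.3 (-1.68, SE 0.45, adjusted p = 0.0044). Evx1 and Evx2, which flank the posterior ends of clusters a and d, had no count in any library.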

How the data were processed

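RNA from 20 libraries of sorted tumour cells was quantified by the authors with Salmon 1.3.0, and the deposited table holds estimated counts per Ensembl gene and library, not normalised. The submitters' notes also name bcl2fastq 2.2.20 and a human reference, while the gene identifiers are those of mouse. The transcript build and the use of strand are not given in the sources used here. Estimated counts of reads that fit several genes are shared among them, and 15.1 to 18.0% of values per library were not whole numbers. Values were rounded by at most 0.5 before testing. The library totals of 12960000 to 28080314 counts set the precision. Of the 52783 genes, 1291 had no symbol or length (2.58% of counts) and remained in the tests.

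Genes were filtered by expression (minimum count 10, minimum total 15), scaled by TMM and tested with edgeR 4.0.16 (R 4.3.3) by quasi-likelihood, with Benjamini-Hochberg adjustment over all genes tested. The fits were tested on simulated data. Each tumour comparison used the 10 libraries of its fraction, each comparison of fractions the 10 of its tumour, and the interaction all 20. Normalised counts were counts divided by DESeq2 size factors over the 20 libraries, and TPM used the longest coding transcript of each gene in GENCODE M21 (GRCm38), which also gave the exon overlaps. Groups and animal numbers came from sample titles, since the labels conflict for 66cl4 animals 5 and 6. Replicates differed by more than counting error (chi-square per degree of freedom 13.5 to 170), and p-values measure the spread between animals. The fractions of a tumour share animals and are paired by design, although the correlation of their deviations was 0.025 to 0.148 in 66cl4 and -0.0033 to 0.324 in 67NR; animals of different tumours share only a number. Alternatives were DESeq2 1.42.0, other scalings and filters, a block on the replicate number, a test against a fold, and leaving out libraries. The block stands for animals between the fractions and in the interaction, but pairs unrelated animals between the tumours. Promoter windows came from RefSeq (GRCm38.p6).

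The members and gene lists were chosen with earlier results of these data known. The results of 1 member are not reported here, although it is part of the counts and sums over the members. Each library's values were given for Hox genes called between tumours or in the interaction, for the leading gene of each cluster and for genes at the boundary of presence, and for other lists up to 4 called genes of largest fold.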

Additional observations from a re-analysis of the deposited data

Results flagged for a closer look

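In 4 of 49 sets of 5 libraries examined, 1 library stood apart from the other 4 by Dixon's criterion, where chance would give about 2.45. Hoxa2 had 36.0 normalised counts in 67NR CD45- animal 1, and 18.0 to 22.5 in the others. Hoxb4 had 62.3 in 66cl4 CD45- animal 4, against 38.2 to 43.9. Hoxd8 had 48.8 in 67NR CD45- animal 4, against 18.7 to 23.7. Hoxb6 had 8.35 in 66cl4 CD45+ animal 3, against 18.3 to 19.1, and that library also had the lowest fibroblast marker sum of its group.

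The difference of 66cl4 over 67NR was lower in CD45+ than in CD45- cells for several genes by the interaction term of edgeR's quasi-likelihood test. Of 19 Hox genes tested 5 passed an adjusted p under 0.05, against 43.1% of all 16453 genes, 21.2% with a negative value. The log2 interaction was -3.45 for Hoxb3 (adjusted p = 4.04e-07), -2.09 for Hoxa3 (adjusted p = 0.0067), -1.82 for Hoxb6 (adjusted p = 0.0167) and -1.44 for Hoxa7 (adjusted p = 0.0136). Hoxa3, Hoxa7 and Hoxb6 lost the call in some alternatives.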

How the results depend on the processing

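The 12 Hox genes called higher in 66cl4 CD45- cells and the 15 called lower in 66cl4 CD45+ cells kept their calls in all 18 alternatives of their comparisons, and no result reversed. Leaving out 1 library at a time gave 14 to 16 called Hox genes between the CD45- groups, 0 to 1 between the CD45+ groups, 15 to 17 between the fractions of 66cl4, 9 to 14 between those of 67NR, and 4 to 7 in the interaction. Between the CD45+ groups the count of 1 became 2 with DESeq2, 3 without a filter, 9 in a fit of all 20 libraries, and 0 with 10 counts required in 5 libraries, without 66cl4 animals 5 and 6, or in a test against a log2 fold change of 1. That test also lost Hoxa4 and Hoxc8 between the CD45- groups (adjusted p = 0.505 and 0.510). Without a filter, 21 genes were called between the fractions of 67NR in place of 10. The interaction gave 3 calls without 66cl4 animals 5 and 6, in place of 5. The cause of these changes was not tested. The number of present genes in CD45+ cells was 6 in 66cl4 and 5 in 67NR at 5 counts, and 1 in each at 20 counts.

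With the replicate number as a block, 13 Hox genes were called between the CD45- groups, 1 between the CD45+ groups, 15 and 10 between the fractions of 66cl4 and 67NR, and 5 in the interaction. The block ended the call of Hoxc8 (adjusted p = 0.0660) and no other, in a comparison where it pairs unrelated animals. Genes near 3 counts per library, most of clusters c and d, could not be compared at this depth.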
